A study of Mus musculus with 10 samples.

Results

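The receptors described here are the orphan, adrenergic, purinergic and lysophospholipid G protein-coupled receptors (GPCRs) of cultured mouse adipocyte precursors (APs). Members were taken by symbol alone, as every gene listed in any of 6 mRNA-seq libraries whose symbol began with Gpr and a digit, Adra1, Adra2, Adrb and a digit, P2ry, Adora, S1pr or Lpar. This rule found 95 genes of 18384 listed. Of these, 63 were Gpr-numbered receptors, 9 adrenergic, 8 P2Y, 6 lysophosphatidic acid (LPA), 5 sphingosine-1-phosphate (S1P) and 4 adenosine receptors. At least 1 read was found in all 6 libraries for 65 members and in 1 to 5 libraries for the other 30.

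APs were prepared from the subcutaneous white adipose tissue of C57BL/6 J mice by magnetic depletion of CD45+ and CD31+ cells and selection of SCA-1+ cells, and were grown in serum-containing medium. The 3 control cultures had no added cytokine, and the 3 IL-4 cultures received interleukin-4, a type 2 cytokine, for 4 days. The comparison asked which transcripts changed when IL-4 primed the precursors. Mouse age, the number of mice behind each culture and any pooling were not given in the sources used here, so p-values measure the spread between these 6 cultures.

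GPCRs are membrane receptors that pass a signal from outside the cell to heterotrimeric G proteins. Receptors coupled to Gs raise cyclic AMP through adenylyl cyclase, those coupled to Gi lower it, and those coupled to Gq release calcium through phospholipase C. In fat tissue, β-adrenergic receptors drive lipolysis and heat production, α2-adrenergic receptors oppose lipolysis, and adenosine, nucleotides, LPA and S1P act as local signals on precursors, adipocytes and resident immune cells.

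The libraries held 28526782 to 29057787 expected counts each, and the receptors took 0.104% to 0.115% of them. Transcripts of precursors were abundant, with Col1a1 at a mean of 3307 FPKM (fragments scaled to transcript length and library size) in control and 3690 FPKM in IL-4 cultures. The 16 listed precursor markers summed to 6761 to 7081 FPKM in control and 9879 to 10563 FPKM with IL-4. Most of this difference was Col3a1, at means of 2181 FPKM in control and 5001 FPKM with IL-4. Beyond the threshold 5 of them (Pi16, Cd34, Pparg, Col3a1 and Ly6a) were higher and none lower. At any fold 8 were higher and 4 lower, the latter Pdgfrb (-0.66), Lum (-0.61), Zfp423 (-0.62) and Dlk1 (-0.67). Markers of mature adipocytes did not move as one. Adipoq had 0, 0 and 3 reads in control and 13, 9 and 10 with IL-4, and Fabp4 rose by 1.10 on the log2 scale (adjusted p = 0.000302). Lipe was lower (-0.32, adjusted p = 0.0432), Plin1 had at most 2 reads in a library, and Lep, Cidec and Retn were not listed. Macrophage markers were also present in every library: the 20 listed markers summed to 5014 to 6511 FPKM in control and 2033 to 2720 FPKM in IL-4 cultures, and 9 of them were lower and none higher with IL-4 beyond the threshold. At any fold 17 were lower and 2 higher. None of the 20 was at 0 in either group, and Ptprc, which encodes CD45, stood at 18.3 FPKM in control and 8.22 FPKM in IL-4 cultures. All 8 pericyte and smooth muscle markers were also lower at an adjusted p under 0.05, from a sum of 1310 to 1399 FPKM in control to 419 to 503 FPKM with IL-4. In bulk RNA, fewer cells of a type and less RNA per cell cannot be told apart.

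After 4 days of IL-4 the receptors moved in both directions. Adora2b, P2ry1, Gpr35 and S1pr3 rose between 3.45-fold and 5.03-fold, and Gpr84, Gpr34, Gpr165 and P2ry13 fell between 5.32-fold and 27.3-fold. Of 58 members with enough reads to test, 10 were higher (17.2%) and 10 were lower (17.2%), where the adjusted p had to be under 0.05 and the change beyond 1 on the log2 scale (edgeR quasi-likelihood test, Benjamini-Hochberg adjustment over 14009 genes). By the same rule 5.77% of all genes tested were higher and 5.26% were lower (809 and 737 genes, or 657 and 961 under library totals without TMM scaling). At any fold, 15 members were higher (25.9%, against 19.0% of all genes tested) and 21 were lower (36.2%, against 18.4%). The median log2 fold change was -0.06 over the members tested and 0.00256 over all genes tested. The other 22 tested members did not pass the adjusted p.

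**Figure D1:**
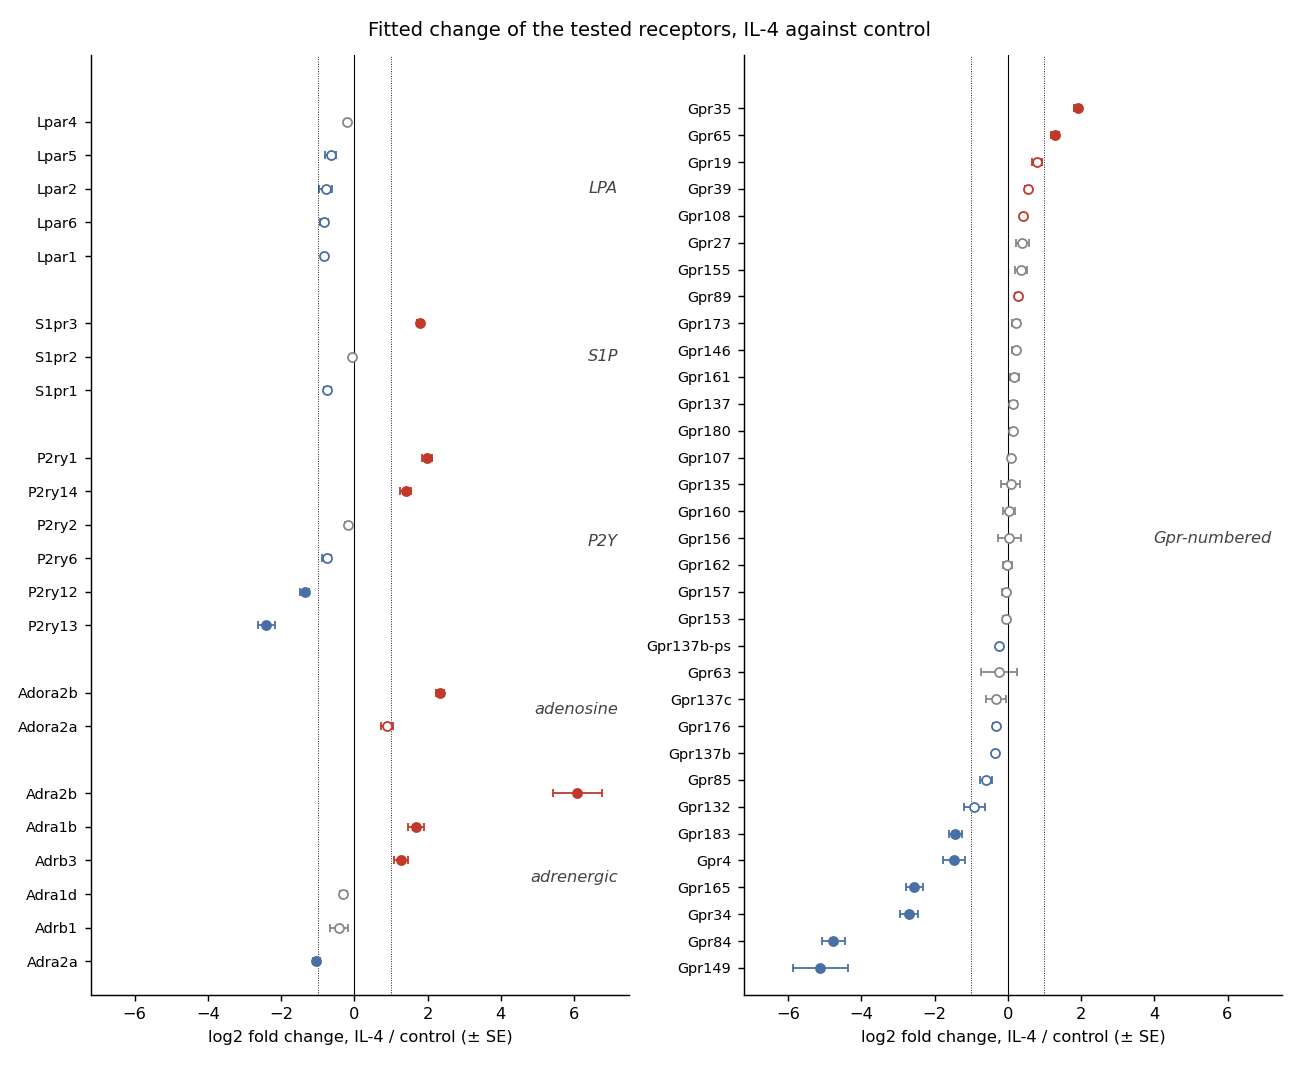
Fitted log2 fold change, IL-4 against control, with its SE, for 55 tested receptors (3 libraries a group). Red marks receptors higher and blue those lower at an adjusted p under 0.05, grey those that did not pass, filled points lie beyond a log2 fold change of 1 (dotted lines). Adra2b, at 6.09, and Gpr149, at -5.12, lie at the ends, and each rests on a group with 1 read in all.

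Both tested adenosine receptors rose. Adora2b encodes the low-affinity, Gs-coupled A2B receptor. It lies at chr11:62248984-62266452 on the plus strand (GRCm38.p6, the mm10 assembly). The control libraries held 218, 183 and 232 Adora2b reads and the IL-4 libraries 870, 923 and 1072. No IL-4 library came near the control range, and the normalized read count went from 200 ± 21.9 to 1008 ± 90.1 (SD, n = 3 each). The fitted log2 fold change was 2.33 ± 0.11 (SE), with an adjusted p of 1.79e-06. Adora2a, the other Gs-coupled adenosine receptor, had 66, 76 and 65 reads in control and 117, 128 and 98 with IL-4. Its rise was smaller, at a log2 fold change of 0.88 ± 0.16 (adjusted p = 0.00284), without overlap between the groups. Adora1 had at most 2 reads in a library. Adora3, the Gi-coupled A3 receptor, had 18, 3.96 and 37 reads in control and 0, 1 and 7 with IL-4, so the groups overlapped, and it was not tested. With the second control or the third IL-4 library left out, it passed the read filter and was lower beyond the threshold. The summed FPKM of the 4 genes was 5.49, 4.72 and 6 without IL-4 and 18.5, 19.7 and 22.2 with it.

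The adrenergic receptors moved in both directions. Adrb3, the Gs-coupled β3-adrenergic receptor of mature white and brown adipocytes, was read at a low level, with 19, 18 and 17 control reads against 41, 33 and 44. The groups did not overlap and the log2 fold change was 1.27 ± 0.20 (adjusted p = 0.00162). It stood at 0.23 FPKM in control and 0.497 FPKM in IL-4 cultures. The 7 listed mature adipocyte markers, Adrb3 among them, summed to 35.9 to 42.1 FPKM in control and 57.8 to 81.4 FPKM with IL-4, and their part in the rise of Adrb3 was not tested. Most of that sum was Fabp4, at means of 34.8 FPKM in control and 66.1 FPKM with IL-4. Adrb1, the β1-adrenergic receptor, had 19 to 23 reads in control and 11 to 16 with IL-4, and its log2 fold change of -0.43 ± 0.25 did not pass (adjusted p = 0.23).

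The α2-adrenergic receptors, which couple to Gi, also split. Adra2a was the most abundant of them in control, with 401, 342 and 343 reads, and fell to 156, 156 and 161 reads. Its log2 fold change of -1.04 ± 0.10 lay close to the threshold (adjusted p = 9.56e-05), and without the first control library it was -0.96. Adra2b was nearly unread in control, with 0, 0 and 1 reads, and had 26, 20 and 39 reads with IL-4. The fitted log2 fold change was 6.09 ± 0.67 (adjusted p = 0.000217), or 7.89 without the third control library, the one with the read. The ratio of the normalized group totals was 94.6, with a 95% counting interval of 16.5 to 3779, since 1 read made up the control total. Adra2b still held only 0.253 FPKM with IL-4, against 1.45 FPKM for Adra2a. Adra2c had 2 reads, both in the third IL-4 library.

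Of the Gq-coupled α1-adrenergic receptors, Adra1d was the most abundant adrenergic gene per length in both groups, at 7.38 and 5.33 FPKM. Its reads went from 510, 524 and 440 to 359, 383 and 336. The groups did not overlap, but the log2 fold change of -0.30 ± 0.10 did not pass (adjusted p = 0.0553). Without the third control library it was -0.38 with an adjusted p of 0.0272. Adra1b was far less abundant and rose from 23, 20 and 15 reads to 62, 59 and 48, a log2 fold change of 1.69 ± 0.22 (adjusted p = 0.000596). Adra1a had 1, 3 and 3 reads in control and none with IL-4. The summed FPKM of the 9 adrenergic genes was 13.5 to 14.6 in control and 8.83 to 9.44 with IL-4.

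The P2Y receptors, which bind extracellular nucleotides, had 2 members higher and 3 lower of 6 tested at any fold. The shares of all genes tested were 19.0% and 18.4%. Beyond the threshold 2 were higher and 2 lower, against 5.77% and 5.26% of all genes tested. P2ry6, a Gq-coupled receptor for UDP, was the most abundant P2Y gene, with 1688, 1701 and 2093 control reads against 831, 935 and 1149 with IL-4. The groups did not overlap, and the log2 fold change was -0.76 ± 0.12 (adjusted p = 0.00171). P2ry1, a Gq-coupled receptor for ADP, rose from 62, 63 and 85 reads to 253, 259 and 235. All 3 IL-4 libraries lay well above control, at a log2 fold change of 1.98 ± 0.14 (adjusted p = 1.84e-05). P2ry2, a Gq-coupled receptor for ATP and UTP, had 244 to 249 control reads and 190 to 203 with IL-4, and its log2 fold change of -0.17 ± 0.09 did not pass (adjusted p = 0.178). P2ry4 and P2ry10 had no more than 1.02 reads in a library.

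P2ry12, P2ry13, P2ry14 and Gpr171 are neighbours on the minus strand of chromosome 3. They lie within 167 kb, inside Med12l, a Mediator subunit gene transcribed from the opposite strand. P2ry12 and P2ry13 encode Gi-coupled receptors for ADP known from microglia, platelets and macrophages, and P2ry14 encodes a Gi-coupled receptor for UDP-glucose. P2ry12, at chr3:59216271-59262985, went from 344, 370 and 444 reads to 136, 126 and 142. P2ry13 is 5389 bases away, at chr3:59207892-59210882, and went from 133, 160 and 188 reads to 18, 35 and 28. P2ry14 is 54400 bases further, at chr3:59114623-59153492, and its 61, 48 and 62 control reads became 123, 129 and 154. Thus P2ry12 fell by 1.36 ± 0.12 and P2ry13 fell by 2.41 ± 0.23 on the log2 scale (adjusted p = 5.37e-05 and 0.000103), while P2ry14 rose by 1.40 ± 0.15 (adjusted p = 0.000171). Gpr171 had 0 to 3 reads and was not tested. Med12l had 37, 40 and 23 control reads and 63, 50 and 52 with IL-4, fewer than P2ry12 in each library but more than P2ry13 in each IL-4 library, with a log2 fold change of 0.87 (adjusted p = 0.0206). None of the exonic bases of P2ry12, P2ry13 or P2ry14 was shared with Med12l exons in the annotation. P2ry14 shared 2.88% of its exonic bases with a noncoding gene of the same strand, F630111L10Rik.

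**Figure D2:**
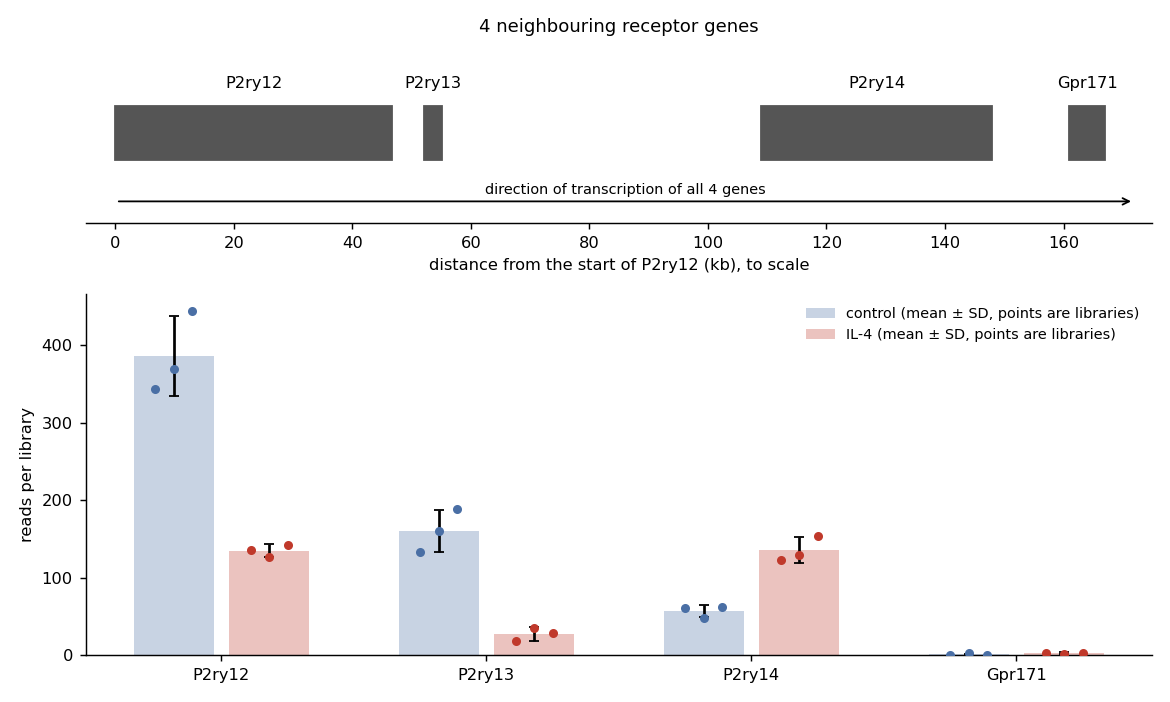
Above, P2ry12, P2ry13, P2ry14 and Gpr171 drawn to scale by distance from the start of P2ry12 (kb), and below, reads per library in control (blue) and IL-4 (red) cultures, with bars for the mean and error bars for the SD (n = 3 each). P2ry12 (126 to 142 reads with IL-4 against 344 to 444) and P2ry13 lie lower with IL-4, and P2ry14 (123 to 154 against 48 to 62) lies higher.

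The 120 bases before the annotated start are shown for these 3 neighbours and for Adora2b and P2ry1, called receptors whose upstream stretches are rich in CG dinucleotides. The sequences are from RefSeq (GRCm38.p6), read 5′ to 3′ on the strand of the gene, and capitals mark CG dinucleotides. They lie at chr11:62248864-62248983 (plus strand) for Adora2b, chr3:61002665-61002784 (plus) for P2ry1, chr3:59153493-59153612 (minus) for P2ry14, chr3:59210883-59211002 (minus) for P2ry13 and chr3:59262986-59263105 (minus) for P2ry12.
Adora2b: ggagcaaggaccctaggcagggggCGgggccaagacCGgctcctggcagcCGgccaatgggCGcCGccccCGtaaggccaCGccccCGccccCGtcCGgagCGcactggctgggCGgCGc
P2ry1: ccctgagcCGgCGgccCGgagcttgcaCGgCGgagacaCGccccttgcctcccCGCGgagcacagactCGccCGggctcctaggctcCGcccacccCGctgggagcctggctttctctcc
P2ry14: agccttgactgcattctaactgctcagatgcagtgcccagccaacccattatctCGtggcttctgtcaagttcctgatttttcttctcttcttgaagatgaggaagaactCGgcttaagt
P2ry13: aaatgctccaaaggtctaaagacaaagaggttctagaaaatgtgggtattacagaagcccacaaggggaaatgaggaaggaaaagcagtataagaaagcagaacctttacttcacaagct
P2ry12: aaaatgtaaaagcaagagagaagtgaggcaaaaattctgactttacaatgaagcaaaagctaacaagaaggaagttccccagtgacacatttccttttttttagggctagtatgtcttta
The printed stretches hold 13 CG dinucleotides for Adora2b, 12 for P2ry1, 2 for P2ry14, and 0 for P2ry13 and P2ry12. Over the full 250 bases before the start, the GC content was 69.6% for Adora2b and 70.8% for P2ry1, 50% for P2ry14 and 41.6% for both P2ry12 and P2ry13, where the median of 27025 genes was 52%. Neither direction of change had promoters of one kind: among the receptors that rose Gpr65 had 36.8% GC and Adra2b 66%, and among those that fell Gpr183 had 32% and Adra2a 67.6%. A promoter entry was matched for 15 of the 20 receptors beyond the threshold. Among those without a matched entry were Adrb3, Gpr149 and Gpr34.

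IL-4 signals through STAT6, a transcription factor that binds palindromes of the form TTCNNNNGAA, whereas other STAT factors prefer TTCNNNGAA. Both forms were searched in the 250 bases before each start, where either strand reads the same. The longer form was in 5.85% and the shorter in 7.02% of 32851 promoter entries. These shares are per entry, and a gene can have several, while a member was counted if any of its entries held the form. Of the 15 receptors beyond the threshold with an entry, none held the longer form and Adra2b and Gpr4 held the shorter. At these shares, counts this small over 15 genes say little. Among the other members, the longer form was found for Lpar1, the most abundant member in control, for Gpr85 and for Gpr161. The shorter was found for Gpr146, Gpr55 and Gpr62. The 60 bases around the matches of Adra2b, Gpr4 and Lpar1 are shown with the motif in capitals, at chr2:127362930-127362989 (plus) for Adra2b, chr7:19212288-19212347 (plus) for Gpr4, and chr4:58499510-58499569 (minus) for Lpar1, which has 3 annotated starts.
Adra2b: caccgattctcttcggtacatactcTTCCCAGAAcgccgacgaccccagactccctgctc
Gpr4: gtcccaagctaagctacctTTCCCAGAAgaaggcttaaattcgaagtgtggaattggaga
Lpar1: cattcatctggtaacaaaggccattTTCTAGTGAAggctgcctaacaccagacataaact
The matches of Adra2b and Gpr4 end 216 and 223 bases before the start. That of Lpar1 ends 132 bases before an internal start, as the gene spans chr4:58435252-58554027 on the minus strand. Of the 8 members with a match, Gpr161 (0.18) and Gpr146 (0.21) did not pass, and Gpr55 and Gpr62 were not tested.

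Among the S1P receptors, S1pr3 rose, S1pr1 fell and S1pr2 did not pass. S1pr3, which couples to Gi, Gq and G12/13, had 1060, 1095 and 975 reads in control and 3365, 3392 and 2948 with IL-4, a log2 fold change of 1.79 ± 0.09 (adjusted p = 3.09e-06). S1pr1, which couples to Gi and is known for lymphocyte egress and endothelial integrity, had 1036, 990 and 1162 reads in control and 499, 605 and 610 with IL-4. The groups did not overlap, and S1pr1 fell by 0.74 ± 0.09 on the log2 scale (adjusted p = 0.000477). S1pr2, which couples mainly to G12/13, had 1926 to 1960 control reads and 1605 to 1717 with IL-4, a log2 fold change of -0.07 ± 0.05 (adjusted p = 0.325). The order of the 3 by FPKM changed accordingly, from S1pr2 (24.7), S1pr1 (12.5) and S1pr3 (8.25) in control to S1pr3 (25.2), S1pr2 (20.8) and S1pr1 (6.65) with IL-4. In IL-4 cultures S1pr3 ranged from 22.9 to 26.5 FPKM and S1pr2 from 20.1 to 21.5, without overlap. S1pr4, a leukocyte receptor, had 0 to 10 reads, and S1pr5 had 1 read in all.

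The LPA receptors had no rise: 4 of 5 tested fell at any fold, against 18.4% of all genes tested. None of the 4 fell beyond a log2 fold change of 1. Lpar1 was the most abundant member per length in control, at 40.6 FPKM. With IL-4 it stood at 20.3 FPKM, below Gpr108 (29.7), S1pr3 (25.2) and S1pr2 (20.8). It had 3895, 3863 and 3966 control reads against 1938, 2122 and 1883, a log2 fold change of -0.82 ± 0.07 (adjusted p = 4.32e-05). Lpar6 had a like fall, from 338, 365 and 432 reads to 180, 188 and 211 (-0.82 ± 0.11, adjusted p = 0.000716). Lpar2 went from 245, 234 and 173 reads to 124, 123 and 94 (-0.78 ± 0.18, adjusted p = 0.0104). Lpar1 and Lpar2 belong to the lipid-receptor branch related to the S1P receptors, and Lpar6 to the branch related to the P2Y receptors. Lpar5, also of the second branch, went from 75, 83 and 101 reads to 53, 45 and 50 (-0.65 ± 0.16, adjusted p = 0.0148). Its adjusted p was 0.0515 without the third control library and 0.0577 without the second IL-4 library. Lpar4 had 369 to 398 control reads and 290 to 311 with IL-4, without overlap, and its log2 fold change of -0.19 ± 0.08 did not pass (adjusted p = 0.0949). Lpar3 had 0 to 6 reads. The summed FPKM of the 6 genes fell from 51.8, 52.5 and 54.2 to 26.9, 28.9 and 26.6.

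**Figure D3:**
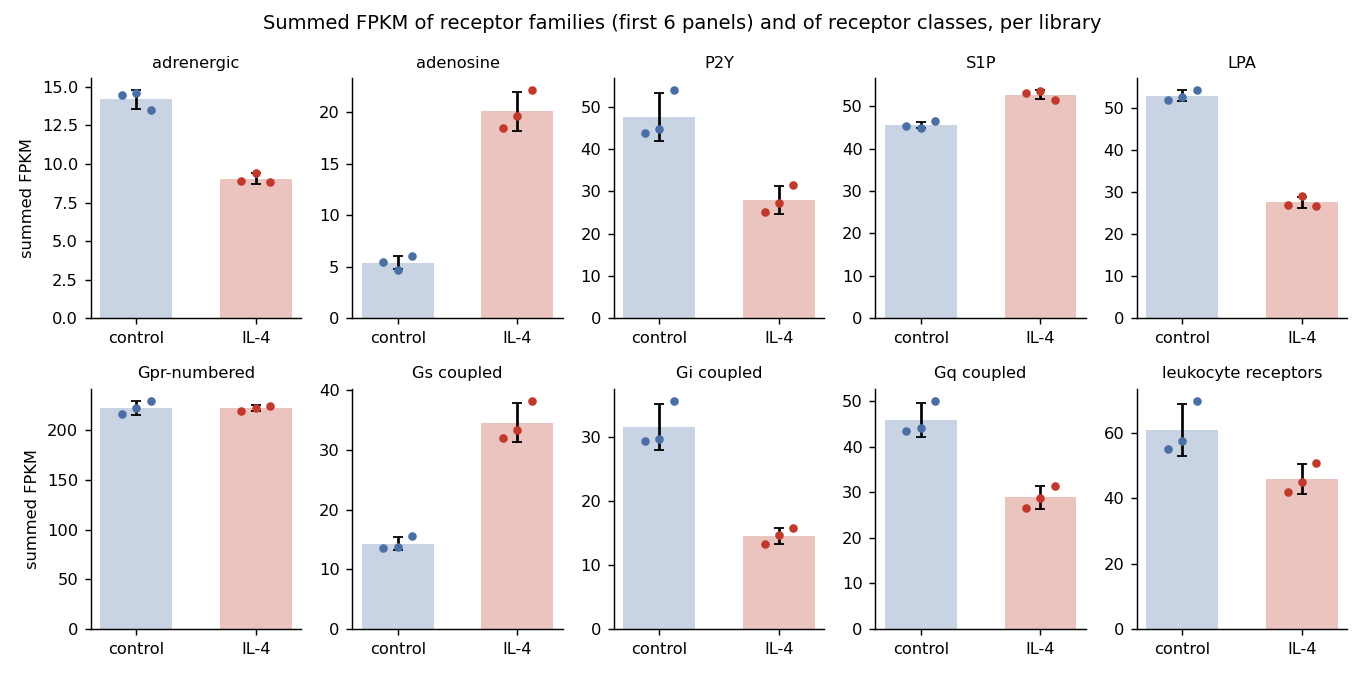
Summed FPKM of the 6 receptor families and of 4 classes of receptors in each library (points), with bars for the mean and error bars for the SD (n = 3 control and 3 IL-4 libraries). The adenosine family (4.72 to 6 FPKM in control, 18.5 to 22.2 with IL-4) and the Gs-coupled class lie higher with IL-4, the LPA family (51.8 to 54.2 against 26.6 to 28.9) and the Gi-coupled class lie lower, and the Gpr-numbered family overlaps between the groups.

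The Gpr-numbered receptors, many of them orphans without an agreed ligand, had 35 of 63 members tested, 3 higher and 6 lower beyond the threshold. Of all genes tested, 5.77% were higher and 5.26% lower, so the higher count was near that share. Gpr35, a receptor for kynurenic acid and related metabolites, rose from 280, 277 and 301 reads to 952, 1051 and 892, a log2 fold change of 1.91 ± 0.09 (adjusted p = 2.22e-06). Gpr65 is a Gs-coupled receptor that senses acid outside the cell. It rose from 330, 344 and 399 reads to 743, 731 and 892, with no overlap, a log2 fold change of 1.29 ± 0.10 (adjusted p = 3.04e-05). Gpr4, of the same proton-sensing group, did not follow it and fell from 18, 21 and 23 reads to 5, 6 and 9 (-1.46 ± 0.30, adjusted p = 0.00562).

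Gpr84, a Gi-coupled receptor for medium-chain fatty acids that is induced in activated macrophages, all but disappeared from the IL-4 libraries. It had 124, 140 and 202 reads in control and 4, 5 and 6 with IL-4, and fell 27.3-fold in the fit (log2 fold change -4.77 ± 0.31, adjusted p = 1.18e-05). Gpr34, a receptor for lysophosphatidylserine known from microglia and macrophages, went from 75, 102 and 115 reads to 15, 13 and 12, a log2 fold change of -2.70 ± 0.24 (adjusted p = 6.43e-05). Gpr183, also called EBI2, binds oxysterols and guides B cells and dendritic cells. Its reads went from 147, 195 and 233 to 63, 66 and 62, so that it fell by 1.43 ± 0.18 on the log2 scale (adjusted p = 0.000489). Gpr165, an orphan, went from 197, 230 and 167 reads to 36, 34 and 21, a log2 fold change of -2.55 ± 0.22 (adjusted p = 6.09e-05). Gpr149, another orphan, was low in control with 18, 11 and 23 reads and had 0, 1 and 0 with IL-4. It fell by 5.12 ± 0.75 on the log2 scale (adjusted p = 0.00103), or by 7.06 without the second IL-4 library, the one with the read, and the ratio of its normalized group totals was 46.7 with a counting interval of 8.03 to 1881.

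**Figure D4:**
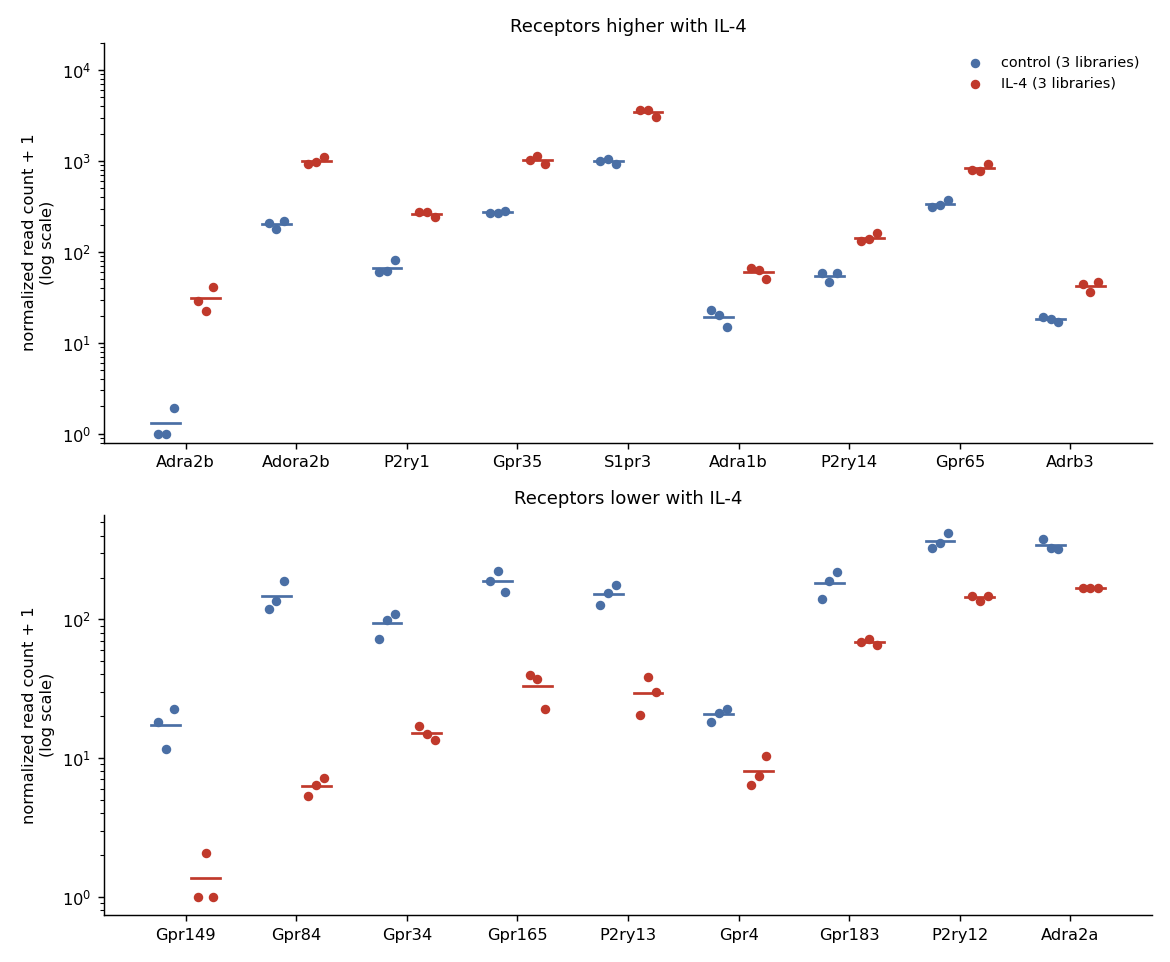
Normalized read count plus 1 in each library on a log axis for 9 receptors higher and 9 lower with IL-4 beyond the threshold. Blue points are control and red points IL-4 libraries (3 each), with a line at the mean. The groups do not overlap for any of the 18, but these were chosen by their change in the same libraries, so this adds no support. S1pr3 (991 to 3422 on average) is the most abundant of them, while Adra2b and Gpr149 reach 0 reads in one group.

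Of the 10 most abundant Gpr-numbered transcripts by mean FPKM, all but Gpr65 (1.29) moved by 0.41 or less on the log2 scale. Gpr108, a Golgi and endosome protein, had 24.8, 25.3 and 25.4 FPKM in control and 28.4, 29.1 and 31.5 with IL-4, a log2 fold change of 0.41 ± 0.06 (adjusted p = 0.000765). Gpr176, an orphan known from the circadian clock, went from 26.3, 28.1 and 24.5 FPKM to 17.8, 19.7 and 17.9 (-0.33 ± 0.08, adjusted p = 0.0116, or 0.0512 without the second control library). Gpr89, a pH regulator of the Golgi, differed by 0.27 ± 0.07 (adjusted p = 0.016), which was 0.0757 without the first and 0.0536 without the third control library. Gpr153, Gpr107, Gpr137 and Gpr180 stood between 11.7 and 22.5 FPKM in every library and did not pass, with log2 fold changes of -0.06, 0.09, 0.15 and 0.14. Under library totals without further scaling the last 3 changed sign, to -0.08, -0.03 and -0.03. Gpr107 had an adjusted p of 0.0268 without the third IL-4 library. Gpr137 shares 18.6% of its exonic bases with Bad on the opposite strand.

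Gpr137b, a lysosomal membrane protein, and its transcribed pseudogene Gpr137b-ps share reads, so their values are uncertain. They had 18.4 to 19.7 and 21.8 to 24.3 FPKM in control against 12.6 to 13.9 and 16.7 to 17.3 with IL-4. Their log2 fold changes were -0.34 ± 0.06 and -0.24 ± 0.06 (adjusted p = 0.00333 and 0.0175), and the second was 0.0647 without the third control library and 0.0694 without the second IL-4 library. Gpr19 (0.80), Gpr39 (0.54) and Gpr85 (-0.60) also passed the adjusted p. Gpr39, a zinc-sensing receptor, shares 44.7% of its exonic bases with Lypd1 on the opposite strand, and reads of the shared stretch cannot be told apart because counting by strand was not given in the sources used here.

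Just inside the fold threshold lay Adra2a (-1.04), Adrb3 (1.27) and Gpr65 (1.29), and just outside it Gpr132 (-0.92), Adora2a (0.88) and Lpar1 (-0.82). Gpr132, a leukocyte receptor for oxidized fatty acids, had 42, 35 and 54 control reads against 14, 19 and 29. Its adjusted p of 0.0356 rose to 0.0858, 0.116, 0.105 and 0.108 without the first control, the third control, the first IL-4 or the second IL-4 library.

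The remaining 37 members did not pass the read filter and were not tested. Of these, 21 had no more than 3 reads in any library and 16 had more in at least 1 library, up to 37 reads for Adora3. They included 28 Gpr-numbered genes, among them Gpr3, a constitutively active Gs-coupled receptor known from thermogenic fat, with 2 to 4 reads, and Gpr119, a lipid amide receptor, with 1 read in all. Of the tested members, Adra2b, Gpr149, Gpr84 and Gpr4 had under 10 reads in every library of one group, and so passed the read filter through the group in which they were high.

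Grouped by the G protein they are known to use, the receptors divided as follows. Of 6 tested Gs-coupled members, Adora2b, Gpr65 and Adrb3 were higher beyond the threshold, Adora2a was higher within it, and Adrb1 did not pass. The summed FPKM of the class was 13.6, 13.7 and 15.6 in control and 32.1, 33.3 and 38.3 with IL-4. Adora2b made up most of this sum with IL-4, at 16.9, 17.9 and 20.7 FPKM. Of 8 tested Gi-coupled members, Adra2b and P2ry14 were higher, and Gpr84, P2ry13, Gpr183, P2ry12, Adra2a and S1pr1 were lower. Their summed FPKM was 29.4 to 35.7 in control and 13.2 to 15.7 with IL-4. Of 6 tested Gq-coupled members, Adra1b and P2ry1 were higher and P2ry6 was lower, and their summed FPKM, most of it from P2ry6, was 43.6 to 50.2 in control and 26.5 to 31.4 with IL-4. Of all genes tested, 19.0% were higher and 18.4% lower at any fold. The class lists were assembled from general knowledge, and a receptor can use more than 1 G protein.

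Receptors known chiefly from leukocytes were looked at apart because most macrophage markers were lower with IL-4. Of 16 such members 10 were tested: Gpr84, Gpr34, P2ry13, Gpr183 and P2ry12 were lower beyond the threshold, P2ry6 and Gpr132 were lower within it, and Gpr35, P2ry14 and Gpr65 were higher. Their median log2 fold change was -1.14, against 0.01 for the other 48 tested members, of which 7 were higher and 5 lower beyond the threshold. Of all genes tested, 5.77% were higher and 5.26% lower beyond it. The list was chosen with earlier results of these data known, so the contrast with the other members adds no support. S1pr1, known for lymphocyte egress, was counted among the other members. Within the macrophage list the markers were also unequal, with Cx3cr1 at 16 FPKM in control and 0.0367 FPKM with IL-4, Lyz2 at 2739 and 776 FPKM, and Cd68 at 247 and 288 FPKM. Mrc1 (0.82, adjusted p = 0.000466) and Cd163 (0.88, adjusted p = 0.00191) were higher within the threshold. The part of these markers in the receptor changes was not tested. Lymphocyte markers summed to 1.08 to 1.32 FPKM in control and 0.37 to 0.53 FPKM with IL-4. Cd3d, Cd3e and Cd3g were not listed in any library, and Cd4, which some macrophages also carry, went from 54, 70 and 85 reads to 8, 15 and 14 (log2 fold change -2.33, adjusted p = 0.000354). Granulocyte and mast cell markers summed to 0.63 to 1.16 FPKM in control and 1.01 to 1.05 FPKM with IL-4, and the 1 tested, Kit, was higher within the threshold (0.56, adjusted p = 0.0454). Endothelial markers summed to 18.4 to 19 FPKM in control and 17.7 to 19.4 FPKM with IL-4, but moved in opposite directions: of 10 tested, Cdh5 (-1.60), Emcn (-1.49), Esam (-1.20) and Tie1 (-1.16) were lower and Vwf (3.08, from 0.8 to 5.97 FPKM) was higher beyond the threshold. The part of these markers in the fall of S1pr1, a receptor that endothelial cells also carry, was not tested.

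The genes that make or remove the ligands included some of the largest changes. For purines, Enpp3, an ectonucleotidase that breaks down ATP, went from 227, 258 and 281 reads to 4388, 4396 and 4111, a log2 fold change of 4.23 ± 0.09 (adjusted p = 8.2e-08). Entpd3 (3.63) and Entpd2 (1.42), which also hydrolyse extracellular nucleotides, were higher, and Alpl, a phosphatase, was lower (-1.73). Entpd3 had 3, 1 and 3 control reads and 27, 28 and 27 with IL-4, so it passed the read filter through the IL-4 group. Adk, the adenosine kinase and the most abundant gene of the list by mean FPKM, was lower within the threshold (-0.44). Of 15 tested genes of this list 5 were higher and 5 lower at any fold, against 19.0% and 18.4% of all genes tested. Nt5e, which makes adenosine from AMP, had 63 to 84 reads in control and 41 to 78 with IL-4 and did not pass (-0.01, adjusted p = 0.989).

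For LPA, Enpp2, which encodes autotaxin, the main extracellular producer of LPA, went from 48, 63 and 42 reads to 293, 263 and 360 (2.73 ± 0.18, adjusted p = 1.19e-05). Pla1a, a phospholipase that releases lysophospholipids, went from 945, 1007 and 1085 to 4045, 4108 and 4851 (2.25 ± 0.08, adjusted p = 6.57e-07). Both were higher where Lpar1, Lpar2, Lpar5 and Lpar6 were lower, and the other 6 tested genes of the list gave 2 lower and none higher. For S1P, Plpp3, a phosphatase of extracellular lipid phosphates, was higher (1.56) and so was the ceramidase Acer2 (1.09), while the kinases Sphk1 (0.17) and Sphk2 (0.14) did not pass. Asah1, a lysosomal ceramidase and the most abundant transcript of that list, had a log2 fold change of 0.01, which was -0.01 without the first control or the third IL-4 library. For catecholamines, the vesicular transporter Slc18a1 was higher (1.53), from 5 to 11 reads to 17 to 23. The synthesis genes Th, Dbh and Pnmt were not listed in any library.

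Downstream of the receptors, 2 of 24 tested G protein genes were higher and 2 lower beyond the threshold, against 5.77% and 5.26% of all genes tested. Those were Gng4 (1.85) and Gnb4 (1.58), and Gng2 (-1.35) and Gng8 (-1.01), all of the βγ subunits. At any fold 7 were higher and 4 lower, and 13 did not pass. Gnas, which encodes the Gs α subunit, was the most abundant at 886 FPKM in control and 946 FPKM with IL-4 (0.25 ± 0.07, adjusted p = 0.019). This call was lost under upper-quartile scaling (adjusted p = 0.0545), library totals (0.08, adjusted p = 0.406) and limma on FPKM, and without the first or the second control library (adjusted p = 0.0788 and 0.0759). The adenylyl cyclases Adcy2 (2.12) and Adcy1 (1.09) were higher, as were the cyclic AMP phosphodiesterases Pde7a (1.46) and Pde8a (1.13). At any fold, 4 of 14 tested cyclase and protein kinase A genes were higher and 3 lower, and 7 did not pass. Among 11 tested phosphodiesterases 4 were higher and 3 lower, and 4 did not pass. Prkar1a, a protein kinase A regulatory subunit and the most abundant of its list, had a log2 fold change of -0.16. The phospholipase C gene Plcb1 rose from 83, 93 and 78 reads to 354, 342 and 310 (2.14 ± 0.12, adjusted p = 5.03e-06), while Plcb3, the most abundant of the 4, did not pass (-0.12).

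Of genes that switch receptors off, Arrb2, which encodes β-arrestin 2, fell from 2286, 2213 and 2953 reads to 663, 721 and 838 (-1.59 ± 0.12, adjusted p = 2.94e-05). Arrdc4, an arrestin-domain protein, was higher (1.28), and Adrbk1 and Adrbk2, the β-adrenergic receptor kinases, were lower within the threshold (-0.34 and -0.78). Of 15 tested regulators of G protein signalling (RGS), which speed the shut-off of Gα subunits, Rgs7 (1.99) and Rgs16 (1.24) were higher and Rgs18 (-1.54) and Rgs1 (-1.34) lower beyond the threshold. Rgs7 had 6, 3 and 7 control reads and 16, 24 and 18 with IL-4, so it passed the read filter through the IL-4 group. Rgs18 and Rgs1 are known chiefly from leukocytes and platelets. Rgs19, the most abundant of the RGS genes by mean FPKM, did not pass (-0.11). Over all 10 pathway lists, 19 of 118 tested genes were higher and 6 lower beyond the threshold (15 and 13 under library totals), with a median log2 fold change of 0.02. Of all genes tested, 5.77% were higher and 5.26% lower in the main fit, so the lower count was near that share.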

How the data were processed

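RNA of 3 control and 3 IL-4 cultures was sequenced as poly(A) mRNA on the BGISEQ-500 platform. The authors filtered reads with SOAPnuke and mapped them to mm10, and the submitters' processing notes also name HISAT, StringTie, Bowtie2 and RSEM. Versions were not given in the sources used here. The deposited files list expected counts per gene, as estimated by RSEM, and the deposited FPKM values are scaled by the authors to transcript length and library size. A gene missing from a file was set to 0, and 1 row that named no gene (0.00016% of counts) was left out.

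Expected counts were rounded. Genes passing filterByExpr (minimum count 10, minimum total 15) were scaled by TMM and tested with the edgeR 4.0.16 quasi-likelihood test in R 4.3.3, without covariates, with Benjamini-Hochberg adjustment over 14009 genes. Called means an adjusted p under 0.05, and beyond the threshold a log2 fold change beyond 1. Reads in the text are expected counts, and normalized read counts are scaled to the mean effective library size. FPKM values carry no TMM scaling. Count intervals are exact binomial and cover counting error only. Of the expected counts, 87% were whole (within 1e-09), and 10 members had counts that were not. Alternatives were DESeq2 1.42.0, other scalings, no filter, limma 3.58.1 on log2(FPKM + 1) or log2(FPKM + 0.1), glmTreat, and each library left out. The steps were tested on simulated data.

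The receptors and gene lists were chosen with earlier results of these data known. Named are receptors called beyond the threshold, every adrenergic, P2Y, adenosine, S1P and LPA receptor, the 10 most abundant Gpr genes and those nearest the threshold, and, of the pathway lists, up to 4 called genes a list and the most abundant. Others (Adora3 as the highest untested count, Gpr3, Gpr119, Gpr19, Gpr39, Gpr85, Nt5e, Sphk1, Sphk2, Adrbk1, Adrbk2, Med12l, Gpr161, Gpr62 and the markers of other cell types) were named after their values were seen. Positions and promoters are from RefSeq GRCm38.p6, and 68 members had a promoter entry. Some genes, among them members counted in the totals, are not reported here. The small RNA libraries were not used here.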

Additional observations from a re-analysis of the deposited data

How the results depend on the processing

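The same 10 receptors higher and 10 lower were called under DESeq2, DESeq2 size factors, upper-quartile scaling and no count filter, and library totals added Gpr132. Library totals shifted the median log2 fold change of all genes by -0.17, and that of the receptors from -0.06 to -0.24. On FPKM values, which carry no such scaling, the receptors' median was -0.12 with a pseudocount of 1 and -0.23 with 0.1. With limma on log2(FPKM + 1), with and without the filter, 5 receptors were higher and 6 lower. The calls of Adra1b, Adra2b, Adrb3, P2ry1, P2ry14, Adra2a, Gpr149, Gpr183 and Gpr4 were lost on the fold, while all kept an adjusted p under 0.05, since the pseudocount shrinks the change of low genes. With a pseudocount of 0.1, Adrb3 and Gpr4 were lost. Tested against a log2 fold change of 1 (glmTreat), 8 were higher and 7 lower.

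With each library left out, 10 to 11 receptors were higher and 9 to 12 lower beyond the threshold, 14 to 19 higher and 17 to 22 lower at any fold, and the median ran from -0.11 to -0.06. Without the first control library Adra2a was lost, without the third IL-4 library Adora2a, Adora3 and Gpr132 were gained, and without the second control library Adora3 and Gpr132 were gained. Over all alternatives but glmTreat, the 20 called receptors kept their direction and an adjusted p under 0.05. The pathway lists gave 18 to 23 genes higher and 6 to 7 lower with a library left out, 10 higher under limma on log2(FPKM + 1) with and without the filter, and 13 lower under library totals and 10 lower under limma on log2(FPKM + 0.1), against 19 and 6.

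Genes near 0 changed sign under library totals and the 3 limma fits: Gpr107 to -0.08 in each, Gpr137 to -0.03, or -0.04 with a pseudocount of 0.1, Gpr180 to -0.03 in each, and Asah1 to -0.16 in each and to -0.01 under upper-quartile scaling. With a library left out Asah1 ran from -0.01 (without the first control or the third IL-4 library) to 0.04. Under library totals and the 3 limma fits, Adra1d, Lpar4, P2ry2, S1pr2 and Gpr153 passed as lower, and Gpr89 no longer passed. No paired analysis was possible because the control libraries are numbered 1 to 3 and the IL-4 libraries 4 to 6, so no replicate number is shared and no replicate block can be fitted. Depth limits the 37 receptors that did not pass the filter. Without a count filter the calls beyond the threshold were the same 10 and 10.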
